A study of Rattus norvegicus with 9 samples.

Results

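The genes of the voltage-gated sodium, calcium and HCN channels and of the potassium channels were followed through differentiating neural stem cells (NSCs). A row of the count table was taken as a channel gene when its symbol began with Kcn, Cacna1, Cacna2d, Cacnb or Cacng, with Hcn and a number, or with Scn, a number and a or b; Kcnj8 was left out. This gave 135 of the 23953 rows, of which 14 were sodium channel genes, 26 calcium channel genes, 4 HCN genes and 91 potassium channel genes. The rule used names alone and no measured value. The NSCs were described by the study as cells of the neonatal rat spinal cord, and bulk RNA was sequenced after they were kept in differentiation medium. Con cells received that medium only. Exo cells received it with exosomes, the small vesicles that cells release, from bone marrow mesenchymal stem cells (BMSCs), which by the study's methods carried an empty lentiviral vector. Cells of the pLV-Exo-Wnt5a group received it with exosomes from BMSCs in which a lentivirus raised expression of Wnt5a, a secreted Wnt ligand. Each group had 3 libraries, all under 1 batch label. Nothing in the labels says that the 3 came from separate cultures or animals, so every p-value measures the spread between these libraries, which may be technical.

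Ion channels set the electrical behaviour of a neuron. Pore-forming sodium channel subunits carry the rising phase of the action potential and work with small beta subunits. Calcium channels pair a pore subunit (Cacna1) with alpha2delta (Cacna2d) and beta (Cacnb) subunits, while most Cacng proteins of the brain act as auxiliary subunits of AMPA-type glutamate receptors. HCN channels open on hyperpolarization and carry the pacemaker current. Potassium channels are the most varied class: voltage-gated channels repolarize the membrane, inward rectifiers (Kcnj) and leak channels of the Kcnk family hold the resting potential, and calcium- or sodium-activated channels shape the afterpotential. In nervous tissue most of these genes belong to neurons, and some, such as Kcnj10 and Kcnj16, to astrocytes, which clear potassium from the extracellular space.

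Total counts lay between 32765138 and 40427647 per library, so 3 counts corresponded to 0.0742 to 0.0916 CPM (counts scaled to the library's size), a limit that covers counting error only. Neuron, astrocyte and NSC markers were all present, with summed levels of 3570 to 4528 CPM, 6789 to 8667 CPM and 2614 to 3951 CPM. The spinal cord label was not borne out by position markers. Of 11 Hox genes active along the spinal cord, 3 had a row, and none exceeded 2 counts in any library, whereas 10 forebrain genes summed to 598 to 751 CPM. Microglial markers summed to 11.5 to 13.0 CPM in Con, 6.36 to 7.44 CPM in Exo and 9.96 to 14.2 CPM in pLV-Exo-Wnt5a, with Tmem119 and P2ry12 at no more than 0.369 and 0.308 CPM, and their part in the results was not tested. Con replicate 1 stood apart: it was the lowest of the 9 libraries for 28% of 15458 genes and the highest for 28.3%.

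Most channel genes were measurable. The filter on low counts kept 111 of the 135 in at least 1 comparison, namely 9 of 14 sodium, 24 of 26 calcium, 4 of 4 HCN and 74 of 91 potassium channel genes. The other 24 had at most 16 counts in any library. Among them were Scn9a, Scn10a and Scn11a, the sodium channels of peripheral sensory neurons, Scn4a of skeletal muscle, Cacna1f of the retina, Cacng1 of skeletal muscle, Kcnq1 and Kcne2, which act in heart and epithelia, and Kcnn4, known from blood cells. Scn11a had between 0 and 13 counts per library, and 5 genes (Cacna1f, Kcng4, Kcne2, Kcne4 and Kcnmb1) stayed below 4 counts in every library. At the other end, 81 channel genes had more than 1000 and 36 more than 10000 counts over the 9 libraries. The plot of counts by family shows all 135 genes.

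**Figure D1:**
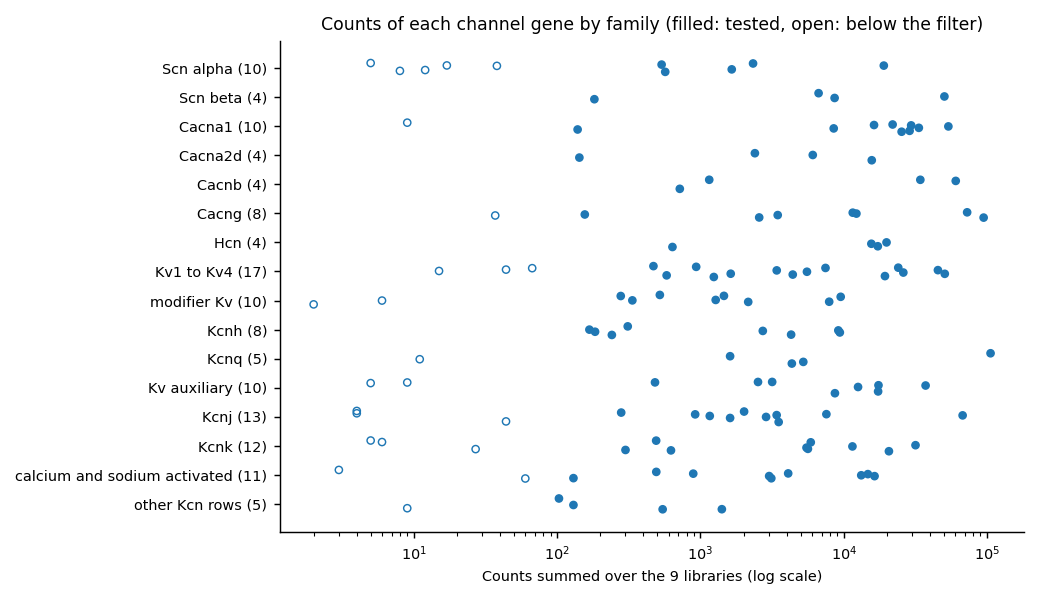
Counts of each channel gene summed over the 9 libraries (x axis, log scale) by family (y axis, number of genes in parentheses), with 1 point per gene. Filled points are the 111 genes tested in at least 1 comparison and open points the 24 below the filter, which all sit at the left of the plot.

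The spread between replicates depended on depth. The pooled coefficient of variation within groups had a median of 31.5% for the 28 tested channel genes with a mean count under 100, 15.2% for 44 genes between 100 and 1000, and 9.12% for 39 genes above 1000. Many channel genes also moved together between replicates of 1 group. Exo replicate 1 was the lowest of the Exo libraries for 62 of 111 channel genes, against 35% of all genes, and pLV-Exo-Wnt5a replicate 3 was the lowest of its group for 67, against 34.3%. Both held for 47 channel genes (42.3%) and for 17.6% of all genes. Among calcium channel genes it was 15 of 24, and among the pore-forming Cacna1 genes 7 of 9. Other families did not share it. It was 0 of 5 for pore-forming sodium channel genes and 1 of 14 for Kcna, Kcnb, Kcnc and Kcnd genes. For calcium- and sodium-activated potassium channel genes it was 2 of 9. In the same 2 libraries the 13 neuron markers had their lowest sums. These were 3731 CPM in Exo replicate 1 against 4489 and 4329 CPM, and 3570 CPM in pLV-Exo-Wnt5a replicate 3 against 4166 and 4528 CPM. Single markers were split: in Exo replicate 1, 8 of the 13 were the lowest of the group and 3 the highest. In pLV-Exo-Wnt5a replicate 3, 10 were the lowest and 1 the highest. In bulk RNA, fewer neurons and less channel RNA per neuron cannot be told apart, and the part of neuron content in the comparisons was not tested.

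Summed by class, the channels differed little between groups relative to this spread. The 91 potassium channel genes summed to 1990.0 ± 24.1 CPM in Con, 1998 ± 51.0 CPM in Exo and 1983 ± 60.8 CPM in pLV-Exo-Wnt5a (SD, n = 3). The 26 calcium channel genes summed to 1524 ± 32.2 CPM, 1529.5 ± 79.9 CPM and 1588 ± 125 CPM. The 14 sodium channel genes summed to 247 ± 21.9 CPM, 267 ± 18.3 CPM and 266 ± 23.9 CPM, and the 4 HCN genes to 149 ± 10.1 CPM, 156 ± 14.8 CPM and 158 ± 22.0 CPM. In each class the ranges of the 3 groups overlapped. Sums follow the genes with most counts, so the families were also described gene by gene.

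**Figure D2:**
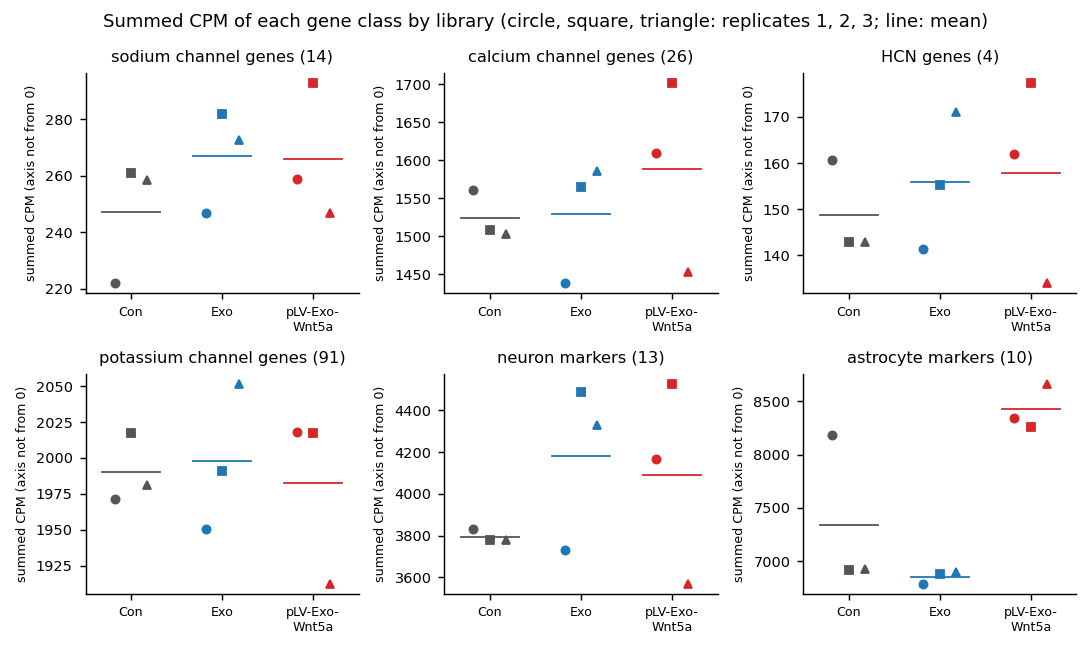
Summed CPM of the sodium, calcium, HCN and potassium channel genes and of neuron and astrocyte markers (y axes, which do not start at 0) in each library of the 3 groups (x axis), with circle, square and triangle for replicates 1, 2 and 3 and a line at the mean. The calcium channel and neuron marker panels share their low libraries, Exo replicate 1 and pLV-Exo-Wnt5a replicate 3.

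Across genes, the test was edgeR's quasi-likelihood test on the counts, with Q for the Benjamini-Hochberg adjusted p over all genes tested. Differences are given as log2FC, the log2 of the ratio of the first group to the second. A gene was called at an unadjusted p under 0.05 with an absolute log2FC above 0.58, and under a stricter rule when Q was under 0.05 and the fold change exceeded 2 or was less than 0.5. Unless another setting is named, values and calls come from the fit of the 6 libraries compared, with the filter on low counts. In these fits no channel gene met the stricter rule in any comparison by edgeR or by DESeq2, whereas Kcnt2 met it in Exo against Con by edgeR with no filter, beside 0.217% of all genes. Of all genes, 0.00664% met it in Exo against Con, 0.159% in the comparison of pLV-Exo-Wnt5a with Exo and 0.0663% in that with Con. With Q under 0.05 alone, 0 channel genes passed in them by edgeR, beside 0.00664%, 0.436% and 0.0862% of all genes. DESeq2 passed Cacna2d1 in the first comparison, beside 1.4% of all genes, and Cacna2d1, Cacng5, Kcnd2 and Kcne1l in the second, beside 2.72%. With no filter edgeR passed the same genes and, in the first, Kcnt2, beside 1.93% and 1.71% of all genes. At an unadjusted p under 0.05, without a fold limit, 13, 13 and 7 channel genes passed, of 111, 111 and 110 tested, beside 14.9%, 12% and 8.35% of all genes. The comparisons share libraries, so a gene that is high in Exo enters the first and the second with opposite signs.

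The effect of BMSC exosomes was addressed by Exo against Con. Of 111 channel genes, 7 (6.31%) were called, against 4.47% of 15070 genes, and all 7 were higher in Exo. Of all genes, 3.56% were called as higher and 0.909% as lower. One of the 7, Kcnt2, passed the filter on low counts only through the Exo libraries, where it is high, and so adds no support to the count. Among the 7 were Kcnt2, Cacna2d1, Kcns2, Kcnj3, Kcnj16 and Cacnb4. Small differences leaned the same way: 76 channel genes had a log2FC above 0 and 35 below, or 68.5% higher against 50.3% of all genes, and the median was 0.09 against 0.00. At an unadjusted p under 0.05, 12 were higher and 1 was lower, against 8.92% and 6.01% of all genes. The groups did not overlap for 24 channel genes (23.3% of all genes), with 19 higher in Exo and 5 lower, beside 10.8% and 12.4% of all genes. By class, 6 of 9 sodium, 15 of 24 calcium and 51 of 74 potassium channel genes were higher, with medians of 0.10, 0.10 and 0.08, and the classes were not tested against each other. When any single library was left out, these medians ranged from 0.04 (Con replicate 1) to 0.18 (Exo replicate 1) for sodium, from 0.04 (Exo replicate 3) to 0.16 (Exo replicate 1) for calcium and from 0.08 to 0.10 for potassium channel genes. Of the 13 neuron markers, 12 were higher in Exo, 8 of them at an unadjusted p under 0.05. Of 10 tested oligodendrocyte lineage markers 8 were lower, 4 at that threshold, of 9 NSC markers 8 were lower, 3 at that threshold, and 3 of 7 tested microglial markers were called as lower. The part of these cell types in the channel genes' differences was not tested. The number of calls moved with the Con libraries, for channel genes as for all genes. Without Con replicate 1, 3 channel genes remained, Kcnt2 and Cacna2d1 among them, beside 2.29% of all genes, and without Con replicate 3, 15 were called, beside 9.24%.

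Whether Wnt5a in the exosome donors made a difference was addressed by pLV-Exo-Wnt5a against Exo. Here 4 of 111 channel genes were called (3.6%), against 3.49% of 15132 genes. Cacng5 was higher, and Cacna2d1, Kcnt2 and Kcnh7 were lower, beside 1.51% and 1.98% of all genes called in these directions. Kcnt2 was again kept by the filter only through Exo. Channel genes were higher in 51 cases and lower in 60, with a median of -0.05 against 0.00. At an unadjusted p under 0.05, 1 was higher and 12 were lower, against 5.07% and 6.91% of all genes, and the groups did not overlap for 18 (16.5% of all genes), 3 higher and 15 lower, against 7.9% and 8.57%. The classes differed in direction: calcium channel genes had a median of 0.07 with 16 of 24 higher, sodium channel genes one of -0.11 with 4 of 9 higher, and potassium channel genes one of -0.12 with 29 of 74 higher, and these differences were not tested. In the same comparison 9 of 13 neuron markers were lower, 3 of them at an unadjusted p under 0.05, with a median log2FC of -0.02 and a range from -0.60 (Dcx) to 0.06 (Rbfox3). Of 10 astrocyte markers 6 were lower, 4 of them at that threshold, and 4 were higher, 2 at that threshold, with a median of -0.16 and Gfap at 0.86. NSC markers were higher in 7 of 9, 2 at that threshold. Of 10 oligodendrocyte lineage markers 5 were higher, 3 at that threshold with Mag at 0.71 and Mbp at 0.57, and 5 were lower, 1 at that threshold. Among the microglial markers, 3 of 7 tested were called as higher. The part of these cell types in the channel genes' values was not tested. The split of channel genes moved with single libraries, from 31.5% higher without pLV-Exo-Wnt5a replicate 2 to 51.4% without Exo replicate 3 or pLV-Exo-Wnt5a replicate 3. Without Exo replicate 2, 1 channel gene (Kcnh7) was called, beside 3.2% of all genes.

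In pLV-Exo-Wnt5a against Con, 2 of 110 channel genes were called (1.82%), against 2.16% of 15089 genes. Both, Kcnh8 and Kcna4, were higher, beside 1.46% of all genes called as higher and 0.696% as lower, and Kcnh8 was kept by the filter only through its pLV-Exo-Wnt5a libraries. An unadjusted p under 0.05 was found for 4 higher and 3 lower channel genes, against 4.2% and 4.15% of all genes. Of the 110, 69 were higher and 41 lower, with a median of 0.07 against 0.00. The groups did not overlap for 16 (16.6% of all genes), 9 higher and 7 lower, against 7.52% and 9.09% of all genes. By class, 6 of 9 sodium, 17 of 24 calcium and 43 of 73 potassium channel genes were higher. Of 13 neuron markers 11 were higher, 4 at an unadjusted p under 0.05, with a median of 0.25. Of 10 astrocyte markers 4 were higher, 1 at that threshold (Gfap at 0.66), and 6 were lower, 1 at that threshold. Of 9 NSC markers 7 were higher and 2 lower, 1 of the latter at it. Of 10 oligodendrocyte lineage markers 6 were lower, 2 at that threshold. Among 7 microglial markers 1 was called as lower. Their part in the channel genes' values was not tested. Leaving out Con replicate 1, 2 or 3 gave 4, 1 or 5 channel gene calls, beside 2.2%, 2.19% and 4.3% of all genes. The plot of log2FC by class shows the sodium, calcium and potassium channel genes tested.

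**Figure D3:**
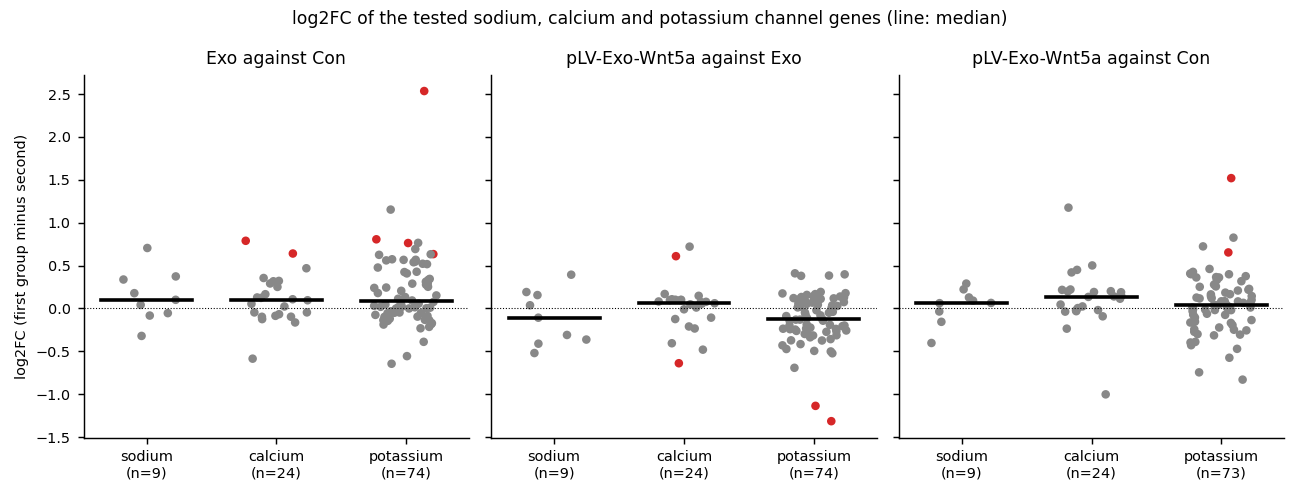
The log2FC of each tested sodium, calcium and potassium channel gene (y axis) by class (x axis, number of genes in parentheses) in the 3 comparisons, with red points for genes called at an unadjusted p under 0.05 with an absolute log2FC above 0.58 and a black line at the class median. All 6 red points lie above 0 for Exo against Con, whereas 1 of 4 does for pLV-Exo-Wnt5a against Exo and both do for pLV-Exo-Wnt5a against Con.

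Among the pore-forming sodium channel genes, 5 of 10 were tested, including the brain types Scn1a, Scn2a, Scn3a and Scn8a. In replicate order, Scn2a, a main sodium channel of excitatory neurons, measured 4.93, 6.44 and 7.60 CPM in Con, 7.48, 9.12 and 7.95 CPM in Exo and 5.08, 6.36 and 5.60 CPM in pLV-Exo-Wnt5a. The Exo libraries were all above the pLV-Exo-Wnt5a libraries. Its log2FC for pLV-Exo-Wnt5a against Exo was -0.52 (SE 0.15, 95% interval -0.85 to -0.19), with Q of 0.184 by edgeR's quasi-likelihood test (Benjamini-Hochberg), and it stood at 0.37 for Exo against Con and -0.16 for pLV-Exo-Wnt5a against Con. It missed the fold limit, and passed it without Exo replicate 1 or without pLV-Exo-Wnt5a replicate 2.

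Scn3a, the type most used in the developing brain, measured 3.27, 4.01 and 6.02 CPM in Con, 4.93, 6.78 and 5.05 CPM in Exo and 4.32, 3.96 and 4.68 CPM in pLV-Exo-Wnt5a, and again no pLV-Exo-Wnt5a library reached the Exo libraries. Scn1a, the main type of inhibitory interneurons, measured 0.686, 1.57 and 1.57 CPM in Con, 2.55, 1.86 and 1.82 CPM in Exo and 2.42, 1.47 and 0.775 CPM in pLV-Exo-Wnt5a. Scn8a, the type that gathers at the axon initial segment and nodes, measured 36.8, 55.5 and 63.7 CPM in Con, 58.7, 60.0 and 57.8 CPM in Exo and 51.3, 58.4 and 53.1 CPM in pLV-Exo-Wnt5a. For both, Con replicate 1 was the lowest library of all. The Exo libraries lay above all Con libraries for Scn1a, while the groups overlapped for Scn8a. None of these 3 had an unadjusted p under 0.05 in the fits of 6 libraries. In Exo against Con, Scn1a was called with no filter and without Con replicate 3, where Scn3a was called too. Scn1a was also called in pLV-Exo-Wnt5a against Exo when the first pLV-Exo-Wnt5a library was left out. All 5 pore genes had a negative log2FC for pLV-Exo-Wnt5a against Exo, from -0.52 to -0.11 with a median of -0.36, and 4 of 5 a positive one for Exo against Con with a median of 0.34.

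The 4 beta subunit genes, which modulate gating and act in cell adhesion, stood on the other side. Their log2FC for pLV-Exo-Wnt5a against Exo was above 0 in 4 of 4, with a median of 0.17, and none passed an unadjusted p of 0.05. Scn2b measured 18.7, 18.8 and 16.7 CPM in Con, 15.7, 20.4 and 19.7 CPM in Exo and 18.7, 25.9 and 18.8 CPM in pLV-Exo-Wnt5a and Scn3b, with the most counts of the sodium class, 128, 147 and 139 CPM in Con, 135, 155 and 153 CPM in Exo and 147, 168 and 137 CPM in pLV-Exo-Wnt5a. For both, the values of each group interleaved with the others. Scn4b ranged over 0.332 to 0.707 CPM.

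The HCN genes Hcn2, Hcn3 and Hcn4 had no unadjusted p under 0.05 in any comparison. Hcn2 measured 50.8, 41.2 and 43.6 CPM in Con, 41.6, 44.9 and 51.4 CPM in Exo and 43.3, 51.7 and 37.2 CPM in pLV-Exo-Wnt5a, with a log2FC of 0.03, -0.05 and -0.04 in the comparisons Exo against Con, pLV-Exo-Wnt5a against Exo and pLV-Exo-Wnt5a against Con. Its 95% interval for Exo against Con was -0.23 to 0.28. Hcn3 measured 52.4, 48.7 and 45.2 CPM in Con, 45.2, 51.4 and 54.6 CPM in Exo and 52.3, 55.7 and 43.5 CPM in pLV-Exo-Wnt5a, and Hcn4, known from the sinoatrial node and thalamus, 56.5, 51.9 and 52.6 CPM in Con, 52.4, 55.9 and 62.9 CPM in Exo and 64.1, 68.6 and 51.7 CPM in pLV-Exo-Wnt5a. In each of these 3 genes the groups overlapped, and the lowest library of the pLV-Exo-Wnt5a group was replicate 3.

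**Figure D4:**
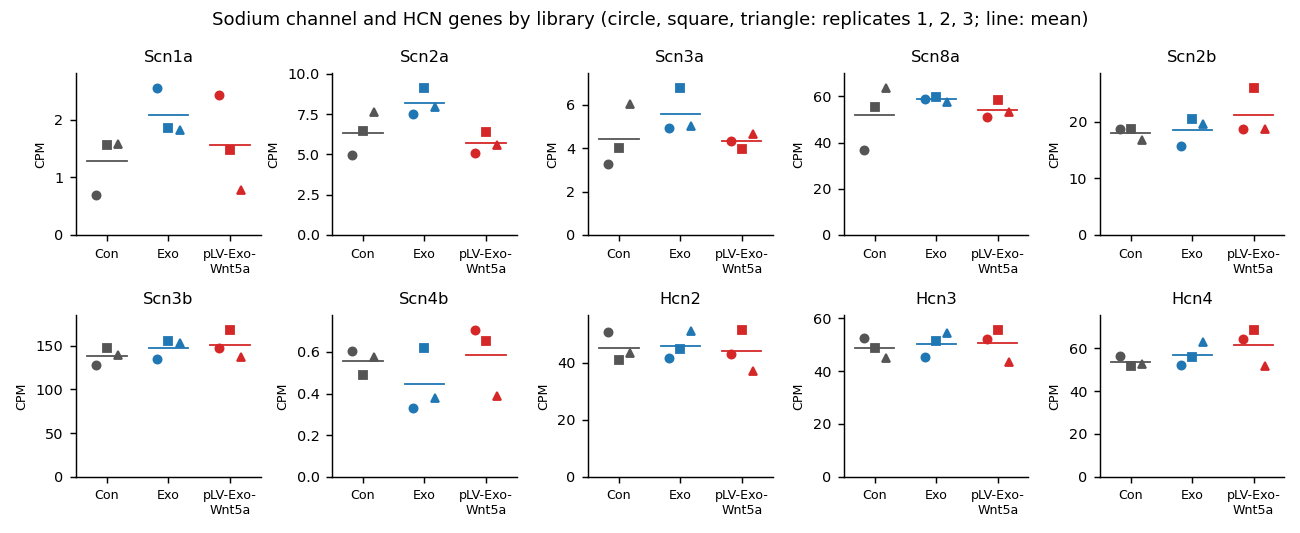
CPM (y axes, from 0) of 7 sodium channel genes and 3 HCN genes in each library of the 3 groups (x axes), with circle, square and triangle for replicates 1, 2 and 3 and a line at the mean. For Scn2a and Scn3a the Exo points lie above the pLV-Exo-Wnt5a points, while the groups overlap in the panels of Hcn2, Hcn3 and Hcn4.

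In the fit of 6 libraries the calcium channel pores gave no call. There, none of the 9 tested Cacna1 genes had an unadjusted p under 0.05 in any comparison. Cacna1h, a T-type pore of low-voltage activation, measured 170.1, 168 and 156 CPM in Con, 136, 142 and 162 CPM in Exo and 161, 165 and 137 CPM in pLV-Exo-Wnt5a. Cacna1b, the N-type pore of presynaptic terminals, measured 80.5, 93.5 and 95.2 CPM in Con, 93.8, 98.4 and 97.6 CPM in Exo and 104, 112 and 93.8 CPM in pLV-Exo-Wnt5a, and Cacna1a, the P/Q-type pore, 80.8, 79.0 and 82.6 CPM in Con, 76.4, 88.4 and 94.0 CPM in Exo and 90.0, 95.4 and 80.8 CPM in pLV-Exo-Wnt5a. In each of these the 3 groups overlapped, with pLV-Exo-Wnt5a replicate 3 the lowest of its group. Cacna1i, another T-type pore, ranged over 72.9 to 103 CPM. For pLV-Exo-Wnt5a against Con, 8 of 9 Cacna1 genes had a log2FC above 0 with a median of 0.19, and the largest value, 1.18, belonged to the skeletal muscle pore Cacna1s, which was named after its values were seen, ranged over only 0.180 to 0.775 CPM and passed the filter through the pLV-Exo-Wnt5a libraries alone. This gene was called with all 9 libraries in the fit, without Con replicate 1 and without the second pLV-Exo-Wnt5a library.

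Cacna2d1, the alpha2delta subunit that brings channels to the membrane and binds gabapentin, was called in both comparisons with Exo. It measured 4.93, 4.57 and 6.72 CPM in Con, 9.67, 11.1 and 7.17 CPM in Exo and 6.41, 5.51 and 5.93 CPM in pLV-Exo-Wnt5a. Every Exo library lay above every Con and every pLV-Exo-Wnt5a library, and the last 2 groups overlapped. The log2FC was 0.79 (SE 0.21, 95% interval 0.31 to 1.26) for Exo against Con, a 1.73-fold difference. For pLV-Exo-Wnt5a against Exo it was -0.64 (SE 0.17, 95% interval -1.02 to -0.26), and relative to Con 0.14. Q was 0.265 and 0.157 in the first and second of these by edgeR's quasi-likelihood test (Benjamini-Hochberg). By DESeq2, and by edgeR with no filter, the gene had Q under 0.05 in both, and without Con replicate 3 it did in the first. The first call held in 12 of 12 alternative settings and the second in 11, missing the fold limit at -0.50 without Exo replicate 2.

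The other alpha2delta genes went separate ways. Cacna2d2 measured 42.5, 40.4 and 43.2 CPM in Con, 45.7, 46.7 and 49.1 CPM in Exo and 47.9, 49.9 and 41.9 CPM in pLV-Exo-Wnt5a, and Cacna2d3 15, 17.0 and 17.6 CPM in Con, 14.6, 18.2 and 18.7 CPM in Exo and 19.2, 19.5 and 18.1 CPM in pLV-Exo-Wnt5a. Cacna2d2 lay higher in all Exo than in all Con libraries, with a log2FC of 0.17 that did not pass an unadjusted p of 0.05. Cacna2d4, a retinal subunit, ranged over 0.252 to 0.817 CPM and had a log2FC of -0.58, -0.41 and -1.0 in the 3 comparisons, none past that threshold in the fit of 6 libraries. It was called for pLV-Exo-Wnt5a against Con with all 9 libraries in the fit and with at least 10 counts required in every library. In the fit of 6 libraries of that comparison, the filter kept it only through Con, where it is high.

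Among the beta subunits, which chaperone the pore, Cacnb4 was called for Exo against Con. This cerebellar and forebrain subunit measured 1.58, 1.57 and 1.60 CPM in Con, 1.86, 2.14 and 3.41 CPM in Exo and 2.63, 1.80 and 1.94 CPM in pLV-Exo-Wnt5a. The Exo libraries exceeded all Con libraries, and Exo replicate 3 lay apart above the other Exo libraries. The log2FC was 0.64 (SE 0.29, 95% interval 0.01 to 1.27) with Q of 0.331 by edgeR's quasi-likelihood test (Benjamini-Hochberg). The call was the least stable of the 7: it held in 5 of 12 alternative settings. It was lost with DESeq2, with the replicate number as a block, without any one of the Con replicates, without Exo replicate 2 and, at a log2FC of 0.35, without Exo replicate 3. Cacnb3 measured 196, 171 and 168 CPM in Con, 154, 177 and 179 CPM in Exo and 178, 192 and 157 CPM in pLV-Exo-Wnt5a, and Cacnb1 109, 97.3 and 92.8 CPM in Con, 91.1, 99.8 and 98.9 CPM in Exo and 103, 111 and 86.6 CPM in pLV-Exo-Wnt5a. Both overlapped between groups, with log2FC between -0.07 and 0.06. Cacnb2 ranged over 2.44 to 3.97 CPM.

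Cacng5, a TARP-family auxiliary subunit of AMPA receptors, had the smallest p of the channel genes in pLV-Exo-Wnt5a against Exo. It measured 35.9, 29.7 and 28.9 CPM in Con, 31.5, 27.0 and 29.8 CPM in Exo and 49.2, 35.7 and 49.1 CPM in pLV-Exo-Wnt5a. All pLV-Exo-Wnt5a libraries lay above all Exo libraries, and Con replicate 1 lay within the pLV-Exo-Wnt5a range. The log2FC was 0.61 (SE 0.12, 95% interval 0.34 to 0.88) against Exo and 0.50 (SE 0.14, 95% interval 0.19 to 0.81) against Con, with Q of 0.0632 and 0.419 by edgeR's quasi-likelihood test (Benjamini-Hochberg). Only the first passed the fold limit. Its call held in 9 of 12 alternative settings and missed the fold limit, at 0.53 to 0.54, without Exo replicate 2, pLV-Exo-Wnt5a replicate 1 or pLV-Exo-Wnt5a replicate 3. With DESeq2, with no filter, with the replicate number as a block, or without the second pLV-Exo-Wnt5a library, its Q was under 0.05.

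The TARP genes with most counts differed less. Cacng7 measured 303, 270.0 and 266 CPM in Con, 258, 268 and 265 CPM in Exo and 273, 292 and 264 CPM in pLV-Exo-Wnt5a, and Cacng4 216, 207 and 199 CPM in Con, 199, 222 and 209.7 CPM in Exo and 211, 217 and 204 CPM in pLV-Exo-Wnt5a. Cacng8, which is typical of the hippocampus, measured 38.6, 32.5 and 32.9 CPM in Con, 30.6, 32.8 and 32 CPM in Exo and 34.0, 38.7 and 28.8 CPM in pLV-Exo-Wnt5a. Groups overlapped in all 3. The log2FC for pLV-Exo-Wnt5a against Exo was 0.08, 0.01 and 0.10 for Cacng7, Cacng4 and Cacng8.

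The voltage-gated potassium pores of the Kcna, Kcnb, Kcnc and Kcnd families (14 of 17 tested) had 1 call, Kcna4 for pLV-Exo-Wnt5a against Con. Kcna4, a fast-inactivating channel of axons, measured 2.11, 1.82 and 2.48 CPM in Con, 2.71, 2.63 and 2.42 CPM in Exo and 3.89, 3.63 and 2.57 CPM in pLV-Exo-Wnt5a. The pLV-Exo-Wnt5a libraries were all above the Con libraries. The log2FC was 0.65 (SE 0.25, 95% interval 0.10 to 1.21) with Q of 0.559 by edgeR's quasi-likelihood test (Benjamini-Hochberg). Leaving out Con replicate 2, or pLV-Exo-Wnt5a replicate 1 or 2, ended its call.

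Kcnd2, the A-type channel of dendrites, measured 12.3, 20.3 and 22.0 CPM in Con, 30.8, 26.1 and 23.9 CPM in Exo and 19.5, 18.1 and 20.3 CPM in pLV-Exo-Wnt5a. Exo libraries lay above those of Con and of pLV-Exo-Wnt5a, at a log2FC of -0.47 (SE 0.11, 95% interval -0.71 to -0.23) for pLV-Exo-Wnt5a against Exo, under the fold limit in all 12 alternative settings. For Exo against Con it was 0.57, just under the fold limit, and the gene was called with the replicate number as a block and without Con replicate 2, Con replicate 3, Exo replicate 2 or Exo replicate 3. DESeq2, and edgeR with no filter, gave Kcnd2 a Q under 0.05 in the first of these, and edgeR's quasi-likelihood test (Benjamini-Hochberg) gave 0.0983.

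The pores with most counts had smaller log2FC. Kcna6 measured 159, 145 and 138 CPM in Con, 139, 137 and 144 CPM in Exo and 147, 149 and 157 CPM in pLV-Exo-Wnt5a. Kcnc1, a channel of fast-spiking neurons, measured 139, 136 and 132 CPM in Con, 122, 117 and 132 CPM in Exo and 138, 131 and 134 CPM in pLV-Exo-Wnt5a. All Exo libraries lay below all Con libraries for Kcnc1, by a narrow margin, and all pLV-Exo-Wnt5a libraries above all Exo libraries for Kcna6. The log2FC was -0.13 for the former and 0.12 for the latter, and neither gene had an unadjusted p under 0.05 in any fit of 6 libraries.

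Modifier subunits of the Kcnf, Kcng, Kcns and Kcnv families are silent alone and alter Kcnb channels. Of 8 tested, 7 had a log2FC above 0 for Exo against Con, with a median of 0.22. Kcns2 measured 2.51, 2.93 and 3.18 CPM in Con, 3.98, 4.82 and 4.54 CPM in Exo and 3.53, 3.60 and 3.92 CPM in pLV-Exo-Wnt5a, and Kcnv1 4.40, 5.03 and 5.33 CPM in Con, 6.97, 7.85 and 6.61 CPM in Exo and 8.26, 6.36 and 4.97 CPM in pLV-Exo-Wnt5a. For both, all Exo libraries lay above all Con libraries. The log2FC for Exo against Con was 0.63 (SE 0.20, 95% interval 0.19 to 1.07) for Kcns2, which was called, and 0.54 (SE 0.17, 95% interval 0.17 to 0.91) for Kcnv1, which missed the fold limit. Q was 0.265 and 0.265 for Kcns2 and Kcnv1 by edgeR's quasi-likelihood test (Benjamini-Hochberg). Kcns2 lost the call without Con replicate 1 (0.54) and without Exo replicate 2 (0.57), and Kcnv1 gained one without Con replicate 3 or Exo replicate 3. Kcnf1 and Kcng1, with most counts of this family, ranged over 24.0 to 32 CPM and 19.3 to 28.3 CPM, with log2FC of 0.02 and 0.15.

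The Kcnh genes (ether-a-go-go family) gave 2 calls, both at low counts. Kcnh8 measured 0.105, 0.359 and 0.303 CPM in Con, 0.510, 0.447 and 0.757 CPM in Exo and 0.555, 0.491 and 1.16 CPM in pLV-Exo-Wnt5a, from 4, 14 and 10 counts in Con to 22, 18 and 48 in pLV-Exo-Wnt5a. No Con library reached the lowest pLV-Exo-Wnt5a library. The log2FC for pLV-Exo-Wnt5a against Con was 1.52 (SE 0.57, 95% interval 0.28 to 2.76), with Q of 0.541 by edgeR's quasi-likelihood test (Benjamini-Hochberg), and the filter kept it only through the pLV-Exo-Wnt5a libraries, where it is high. Its call ended when Con replicate 1 or the third pLV-Exo-Wnt5a library was left out. Kcnh7 measured 1.03, 0.796 and 0.726 CPM in Con, 1.84, 0.820 and 1.14 CPM in Exo and 0.959, 0.464 and 0.291 CPM in pLV-Exo-Wnt5a, with 72, 33 and 45 counts in Exo and 38, 17 and 12 in pLV-Exo-Wnt5a, and these groups overlapped. Its log2FC of -1.14 (SE 0.49, 95% interval -2.21 to -0.06) for pLV-Exo-Wnt5a against Exo had a Q of 0.387 by edgeR's quasi-likelihood test (Benjamini-Hochberg). The call was lost without Exo replicate 1 or 3 or pLV-Exo-Wnt5a replicate 2 or 3. The family's well-counted genes were Kcnh2, the HERG channel, at 24.2 to 30.2 CPM, Kcnh3 at 22.7 to 30.2 CPM and Kcnh1 at 10.4 to 14.7 CPM.

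Kcnq3 and Kcnq5 are subunits of the M-current of neurons, which restrains repetitive firing. Kcnq5 ranged over 9.07 to 20.2 CPM. Kcnq3 was named after its values were seen and measured 3.77, 4.96 and 4.75 CPM in Con, 5.59, 6.11 and 5.02 CPM in Exo and 3.43, 3.79 and 4.34 CPM in pLV-Exo-Wnt5a. Exo libraries lay above pLV-Exo-Wnt5a libraries, with a log2FC of -0.52 (SE 0.17, 95% interval -0.90 to -0.15) and Q of 0.241 by edgeR's quasi-likelihood test (Benjamini-Hochberg). It missed the fold limit, and was called when the third Exo or the third pLV-Exo-Wnt5a library was left out.

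Auxiliary genes of voltage-gated potassium channels (8 of 10 tested) were lower in 5, 5 and 6 cases in Exo against Con, pLV-Exo-Wnt5a against Exo and pLV-Exo-Wnt5a against Con. Kcne1l, also known as Kcne5, a small accessory subunit, measured 67.5, 51.8 and 52.9 CPM in Con, 49.6, 51.3 and 54.8 CPM in Exo and 39.3, 44.0 and 41.1 CPM in pLV-Exo-Wnt5a. All pLV-Exo-Wnt5a libraries lay below all Exo and Con libraries. The log2FC was -0.31 (SE 0.08, 95% interval -0.48 to -0.15) against Exo and -0.47 (SE 0.12, 95% interval -0.73 to -0.21) against Con, with Q of 0.114 and 0.354 by edgeR's quasi-likelihood test (Benjamini-Hochberg). DESeq2, and edgeR with no filter on low counts, put Q under 0.05 for the first of these. It stayed under the fold limit in 12 of 12 alternative settings of each. Kcnip3, a calcium-binding Kcnd partner, measured 121, 115 and 107 CPM in Con, 103, 104 and 104 CPM in Exo and 107, 97.2 and 109 CPM in pLV-Exo-Wnt5a, and Kcnab2, a beta subunit of Kcna channels, 55.7, 50.1 and 48.8 CPM in Con, 46.0, 48.7 and 50.8 CPM in Exo and 53.6, 54.7 and 45.9 CPM in pLV-Exo-Wnt5a. Con replicate 1 was the highest library for Kcnip3, and neither gene had an unadjusted p under 0.05.

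Inward rectifiers gave 2 calls for Exo against Con. Kcnj3, a subunit of the G-protein-gated channels of neurons, measured 2.06, 3.70 and 4.45 CPM in Con, 6.15, 6.51 and 5.15 CPM in Exo and 4.75, 4.83 and 4.12 CPM in pLV-Exo-Wnt5a, with the lowest value in Con replicate 1. Exo libraries lay above all Con and all pLV-Exo-Wnt5a libraries, at a log2FC of 0.81 (SE 0.27, 95% interval 0.21 to 1.4) for Exo against Con. Kcnj16, which pairs with Kcnj10 in astrocytes, measured 1.74, 2.64 and 3.12 CPM in Con, 5.05, 3.88 and 3.78 CPM in Exo and 2.98, 2.21 and 4.53 CPM in pLV-Exo-Wnt5a. Exo libraries were again all above Con, at a log2FC of 0.76 (SE 0.25, 95% interval 0.20 to 1.33). Q was 0.271 and 0.273 for Kcnj3 and Kcnj16 by edgeR's quasi-likelihood test (Benjamini-Hochberg). Without Con replicate 1 both missed the fold limit, at 0.54 and 0.55, and without Exo replicate 1 the unadjusted p of Kcnj16 passed 0.05. Kcnj10, the main astrocyte channel, measured 192, 208 and 205 CPM in Con, 208, 184 and 191 CPM in Exo and 188, 160.4 and 215 CPM in pLV-Exo-Wnt5a, and the groups overlapped, with a log2FC of -0.05, -0.04 and -0.11. Kcnj4 ranged over 17.1 to 26.0 CPM, and Kcnj6, a partner of Kcnj3, over 7.99 to 12 CPM.

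Leak channels of the Kcnk family had no gene with an unadjusted p under 0.05 in any comparison (9 of 12 tested). Kcnk2, a mechanically gated channel also called TREK-1, measured 83.9, 91.6 and 92.5 CPM in Con, 92.1, 99.6 and 90.7 CPM in Exo and 85.3, 89.7 and 96.7 CPM in pLV-Exo-Wnt5a. Kcnk9 and Kcnk10 ranged over 40.8 to 70.7 CPM and 30.4 to 35.5 CPM. The 95% interval of the log2FC of Kcnk2 was -0.11 to 0.26 for Exo against Con and -0.20 to 0.11 for pLV-Exo-Wnt5a against Exo.

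The calcium- and sodium-activated potassium channels leaned to one side for pLV-Exo-Wnt5a against Exo. Of 9 tested, 8 had a log2FC below 0, and the median was -0.24. An unadjusted p under 0.05 was reached by 4 of the 8 (Kcnmb4, Kcnn2, Kcnn3 and Kcnt2), a direction and threshold met by 6.91% of all genes. Kcnt2 was kept by the filter only through the Exo libraries, where it is high, so it adds no support to these counts. In summed CPM the family stood at 173, 169 and 166 CPM in Con, 163, 171 and 175 CPM in Exo and 148, 153 and 144 CPM in pLV-Exo-Wnt5a. No pLV-Exo-Wnt5a library reached the lowest library of the other groups. Kcnmb4, the neuronal beta subunit of the large-conductance BK channel, measured 51.8, 46.9 and 45.2 CPM in Con, 46.9, 53.6 and 52.9 CPM in Exo and 43.6, 43.1 and 41.9 CPM in pLV-Exo-Wnt5a. Kcnn2, a small-conductance SK channel, measured 47.9, 48.4 and 47.2 CPM in Con, 45.4, 42.4 and 42.6 CPM in Exo and 37.6, 34.4 and 37.6 CPM in pLV-Exo-Wnt5a. For Kcnn2 the log2FC was -0.24 for pLV-Exo-Wnt5a against Exo and -0.39 (SE 0.10, 95% interval -0.60 to -0.18) relative to Con, the smallest p of the channel genes in the latter, with Q of 0.327 by edgeR's quasi-likelihood test (Benjamini-Hochberg). Kcnt1, a sodium-activated channel, ranged over 32.9 to 42.6 CPM and had a log2FC of 0.04 for pLV-Exo-Wnt5a against Exo. The BK pore Kcnma1, named after its values were seen, had a log2FC of -0.24.

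Kcnt2, the second sodium-activated channel, had the largest log2FC of the channel genes, from few reads. It had 1, 6 and 6 counts in Con, 31, 32 and 21 in Exo and 4, 11 and 18 in pLV-Exo-Wnt5a. Every Exo library exceeded every library of the other groups. The log2FC was 2.53 (SE 0.60, 95% interval 1.21 to 3.86) for Exo against Con and -1.31 (SE 0.53, 95% interval -2.49 to -0.14) for pLV-Exo-Wnt5a against Exo, with Q of 0.265 and 0.360 by edgeR's quasi-likelihood test (Benjamini-Hochberg). Pooled over libraries, 84 counts in Exo against 13 in Con gave a ratio of 6.10 with a counting interval of 3.38 to 11.9. That interval covers counting error only and leaves out the spread between libraries. It passed the filter on low counts in both comparisons only through the Exo libraries, where it is high, so its calls are a description and add no support to the counts of its class. The second call was lost without Exo replicate 1 or 2 or pLV-Exo-Wnt5a replicate 1 or 2. With no filter on low counts it also met the stricter rule for Exo against Con. In pLV-Exo-Wnt5a against Con it was below the filter.

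**Figure D5:**
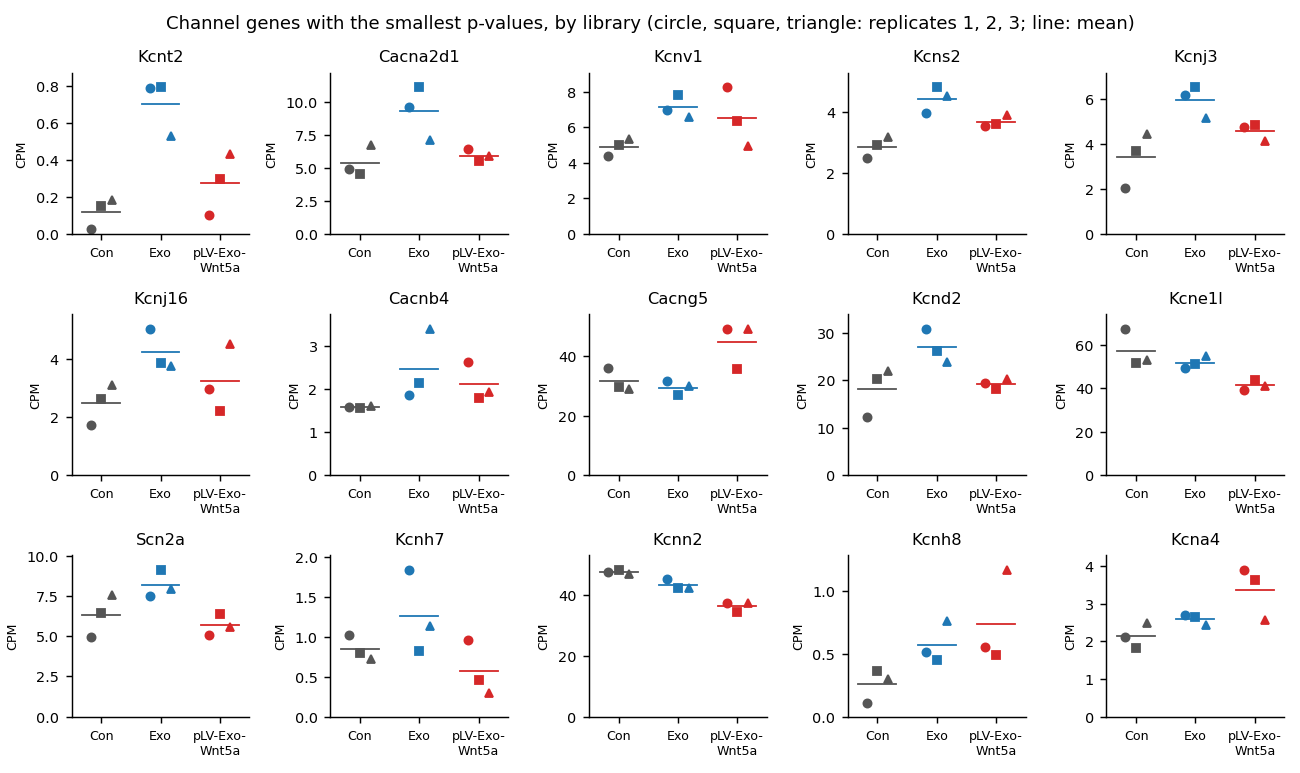
CPM (y axes, from 0) of 15 channel genes that were called or had one of the 5 smallest p-values of a comparison in each library of the 3 groups (x axes), with circle, square and triangle for replicates 1, 2 and 3 and a line at the mean. Exo points lie above Con and pLV-Exo-Wnt5a points for Cacna2d1 and Kcnt2, and pLV-Exo-Wnt5a points lie below both other groups for Kcne1l.

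The table has 4 noncoding rows that begin with Kcn, and they were counted with the potassium class. Kcnmb4os2 and Kcnmb4os1 are by name opposite-strand transcripts of Kcnmb4, and Kcnd3os of Kcnd3. Strand use in the counting is not given in the sources used here, so reads of these genes and of their partners cannot be told apart. They ranged over 3.33 to 4.62 CPM, 0.224 to 0.686 CPM and 0.846 to 1.82 CPM. Kcnq1ot1, the imprinted antisense RNA of Kcnq1, was named after its values were seen and ranged over 0.0242 to 0.628 CPM. None of the 4 had an unadjusted p under 0.05 in the fits of 6 libraries. Kcnq1ot1 was called in the comparison of pLV-Exo-Wnt5a with Exo when the second pLV-Exo-Wnt5a library was left out. With all 6 libraries of that comparison, the filter kept it only through the Exo libraries.

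Genes whose products attach to or work beside these channels were tested gene by gene and counted in 4 lists, and no list was tested as a whole. Of 9 sodium channel partners, such as the Fgf11 to Fgf14 family and the scaffold Ank3, 7 were higher in Exo than in Con, with a median log2FC of 0.30, and 7 were lower in pLV-Exo-Wnt5a than in Exo, with a median of -0.14. An unadjusted p under 0.05 was reached by 1 gene in each, beside 14.9% and 12% of all genes, and 50.3% of all genes were higher in the first comparison and 51.4% in the second. Of 8 tested potassium channel partners, such as Dpp6 and Cntnap2, none passed for Exo against Con and 1, lower, passed for pLV-Exo-Wnt5a against Exo. For 7 tested calcium and HCN channel partners the medians were 0.07, -0.02 and 0.01 in the 3 comparisons, and for 6 genes of the sodium and potassium pump, which restores the ion gradients, 0.04, 0.00 and 0.08. No partner gene was past the stricter rule.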

How the data were processed

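RNA-seq libraries were grouped by their labels, with n = 3 in each of Con, Exo and pLV-Exo-Wnt5a. The deposited values are raw whole-number counts, 1 row per gene. By the study's methods low-quality reads were removed and reads aligned with HISAT2, whereas the submitters' processing notes name Bowtie2, RSEM 1.3.1 and DESeq2 1.4.5. The genome build, annotation and strand setting are not given in the sources used here. The labels state rat, but rows carry mouse symbols and mouse gene numbers, and what reference the reads were aligned to was not tested. Of the 135 symbols, 131 matched a rat RefSeq symbol or synonym. Gene lengths were not used, so CPM values are compared between libraries and not between genes.

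From the deposited counts, each pair of groups (6 libraries) was filtered with filterByExpr (minimum count 10), normalized by TMM and tested over all genes with edgeR 4.0.16 (R 4.3.3), Q being the Benjamini-Hochberg adjusted p. DESeq2 1.42.0 was an alternative. CPM values were normalized by TMM over the 9 libraries. The SE was derived from the quasi-likelihood F statistic, and 95% intervals used its degrees of freedom. The tests were checked on simulated data. Alternatives were RLE normalization, all 9 libraries in 1 fit, no filter, at least 10 counts in every library, no fold limit, the replicate number as a block, and leaving out each library. Total counts of 32765138 to 40427647 put 3 counts at 0.0742 to 0.0916 CPM, and genes near that level were not measurable. The channel genes, families, marker and partner lists and tests were chosen with earlier results of these data known.

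The rule for genes named with values took all tested sodium and HCN genes, the 4 calcium and 3 potassium channel genes per family with most counts, every called gene, and the 5 with the smallest p per comparison. Some channel genes that this rule takes are counted with their class but not reported here. A few others are marked as named after their values were seen.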

Additional observations from a re-analysis of the deposited data

How the results depend on the processing

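Of the 20 single-gene results followed through the alternatives, those with the smallest p or a call, none changed direction. Genes with small differences did: for pLV-Exo-Wnt5a against Exo 51 of 111 were higher, and this became 35 when pLV-Exo-Wnt5a replicate 2 was left out and 57 when Exo replicate 3 was. The number called for Exo against Con was 7, and 13 with no fold limit (14.9% of all genes) and 3 to 15 when single libraries were left out. For pLV-Exo-Wnt5a against Exo it was 4, and 13 with no fold limit (12%) and 1 to 5 with single libraries left out. For pLV-Exo-Wnt5a against Con it was 2, and 4 with all 9 libraries in 1 fit (2.34% of all genes), 7 with no fold limit (8.35%) and 1 to 5 with single libraries left out. Under the stricter rule 0 channel genes were called in every comparison and alternative except 1 (Kcnt2) for Exo against Con with no filter on low counts. The replicate number did not pair the samples: deviations of same-numbered libraries correlated at -0.20 to 0.06 over 9 pairs, and with the replicate block 7, 4 and 3 channel genes were called in the 3 comparisons, beside 3.88%, 3.18% and 2.17% of all genes. Of 144 class medians recomputed under alternatives, 8 moved by more than their spread. With 1 library of a group left out, its remaining 2 give the spread together with the other group. Depth limits the 28 tested genes with a mean count under 100 most.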
